A study of Mus musculus with 16 samples.

Results

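Monoubiquitinated histone H2A (H2AK119ub1) was gained at 3715 regions in wild type NPCs alone. NPCs are neural cells made in vitro from mouse embryonic stem cells (mESCs) and were collected at day 6 of neural differentiation. The regions were chosen by measured values, namely the peak lists of a single mark. A region is a wild type NPC H2AK119ub1 peak that overlapped no H2AK119ub1 peak of wild type mESCs and none of PCGF5-depleted NPCs by even 1 bp. They were 3715 of the 5754 peaks of that list, or 64.6%. The absence of H2AK119ub1 from those other lists is therefore the rule and not a finding, and a list holds only what passed the peak caller, so no peak is not the same as no mark.

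All libraries were ChIP-seq of the 46C line, mESCs with a green fluorescent reporter in the Sox1 gene, or of neural cells differentiated from it in suspension culture. The groups used here were wild type mESCs, wild type NPCs, PCGF5-depleted mESCs and PCGF5-depleted NPCs, each with an H2AK119ub1 and an H3K27me3 list (trimethylated lysine 27 of histone H3). The labels give the genotype of the depleted cells as shPCGF5, a short hairpin RNA against Pcgf5. Flag-PCGF5 was mapped in mESCs and in NPCs that the labels call wild type and that, by the study's methods, carried a 3-fold Flag tag in the Pcgf5 gene. Each group had 1 library, so that no difference between groups has a replicate error and none was tested. Intervals in parentheses are 95% Wilson intervals, which cover counting error only.

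PCGF5 is one of the alternative subunits around which Polycomb repressive complex 1 (PRC1) is built. PRC1 places ubiquitin on histone H2A through its RING subunit, and Polycomb repressive complex 2 (PRC2) methylates H3K27. Each complex can bind or be stimulated by the mark of the other, and together they cover the start sites of silent developmental regulators, which are often rich in CpG dinucleotides.

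The sequences under the summits of a few of these regions show how varied they were. Each line below gives 200 bases around the summit of the highest-scoring region in the promoter window of the named gene (2500 bp to each side of its start sites) whose 200 bases held no non-coding part of an exon, on mm9, with every CpG in capitals. Otx2, Cdkn2a, Eomes and Bmi1 are shown because they were among the genes most covered by the regions. Nfib is shown because its window had H3K27me3 peaks in wild type NPCs and none in PCGF5-depleted NPCs, as described further on. The last sequence is from an isolated intergenic region that had H3K27me3 in neither NPC list. That region had the highest score of this kind among the chromosomes searched, which were not all of chromosomes 1 to 19.
Otx2, chr14:49280529-49280728, + strand: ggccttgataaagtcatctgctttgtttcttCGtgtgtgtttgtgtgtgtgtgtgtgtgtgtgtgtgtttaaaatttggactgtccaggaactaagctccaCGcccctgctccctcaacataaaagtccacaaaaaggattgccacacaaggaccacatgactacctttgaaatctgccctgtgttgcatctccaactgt
Cdkn2a, chr4:88926005-88926204, + strand: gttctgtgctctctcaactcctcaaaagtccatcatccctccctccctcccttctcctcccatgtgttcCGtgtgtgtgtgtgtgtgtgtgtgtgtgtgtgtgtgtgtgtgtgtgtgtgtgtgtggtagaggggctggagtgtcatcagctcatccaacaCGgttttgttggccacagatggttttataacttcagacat
Eomes, chr9:118385363-118385562, + strand: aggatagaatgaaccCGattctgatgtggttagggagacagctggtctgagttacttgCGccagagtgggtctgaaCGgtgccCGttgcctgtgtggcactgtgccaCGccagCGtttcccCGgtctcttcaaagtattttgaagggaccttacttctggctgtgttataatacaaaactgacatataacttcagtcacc
Bmi1, chr2:18602188-18602387, + strand: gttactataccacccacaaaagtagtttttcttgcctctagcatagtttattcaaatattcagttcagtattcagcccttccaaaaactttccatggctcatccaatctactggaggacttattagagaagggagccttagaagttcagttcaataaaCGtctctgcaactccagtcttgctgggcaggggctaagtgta
Nfib, chr4:82150282-82150481, + strand: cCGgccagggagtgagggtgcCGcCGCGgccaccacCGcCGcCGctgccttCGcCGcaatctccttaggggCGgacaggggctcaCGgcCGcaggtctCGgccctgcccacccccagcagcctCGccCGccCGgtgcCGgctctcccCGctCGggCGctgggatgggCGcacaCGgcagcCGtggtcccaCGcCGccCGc
Region without H3K27me3, chr14:5656568-5656767, + strand: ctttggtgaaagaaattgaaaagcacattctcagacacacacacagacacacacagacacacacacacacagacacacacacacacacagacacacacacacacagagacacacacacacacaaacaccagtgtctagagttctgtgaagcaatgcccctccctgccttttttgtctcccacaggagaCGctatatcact

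The Nfib sequence held 26 CpG in 200 bases at a GC content of 79.0%, whereas the Bmi1 sequence held 1 and the Otx2 and Cdkn2a sequences 2 each. The Otx2, Cdkn2a and H3K27me3-free sequences held runs of the dinucleotide CA or its complement TG within 100 bases of the summit. The last of these lies beyond the promoter window from a start of Gm3194, one of a family of similar predicted genes on chromosome 14, so that the placing of its reads among copies is uncertain.

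In windows of 500 bases centred on the summit, the regions of wild type NPCs alone were poorer in CpG than the other wild type NPC peaks. Their median ratio of observed to expected CpG was 0.237, against 0.383 for peaks gained in both NPC lists, 0.344 for peaks of mESCs and wild type NPCs and 0.508 for peaks present in mESCs and in both NPC lists. For comparison it was 0.580 at 45972 start sites of protein-coding transcripts and 0.154 in 25556 genome windows spaced 100000 bp apart. A window with a GC content above 50% and a ratio above 0.6 is called CpG-rich here. Such windows made up 6.60% of the regions (5.84 to 7.44), 22.2% of the peaks gained in both NPC lists (19.2 to 25.5), 36.7% of the peaks of all 3 lists (33.5 to 40.0), 47.3% of start sites and 0.708% of genome windows. A single wild type NPC peak had too few known bases and was left out.

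A run of at least 10 CA or 10 TG units was searched for in the central 200 bases of each window, on the forward strand, which covers both strands since they are complements. It was present at 520 of the 3715 regions, or 14.0% (12.9 to 15.2). In genome windows the share was 1.80% (1.64 to 1.97) and at start sites 0.474%. This was shared by all classes of wild type NPC peaks, at 16.0% of those gained in both NPC lists, 10.3% of those of mESCs and wild type NPCs and 16.0% of those of all 3 lists. Peaks with the repeat belonged to the wild type NPC alone class in 63.8% of cases and those without it in 64.7%. The match describes these windows, and its part in the peaks was not tested.

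**Figure D1:**
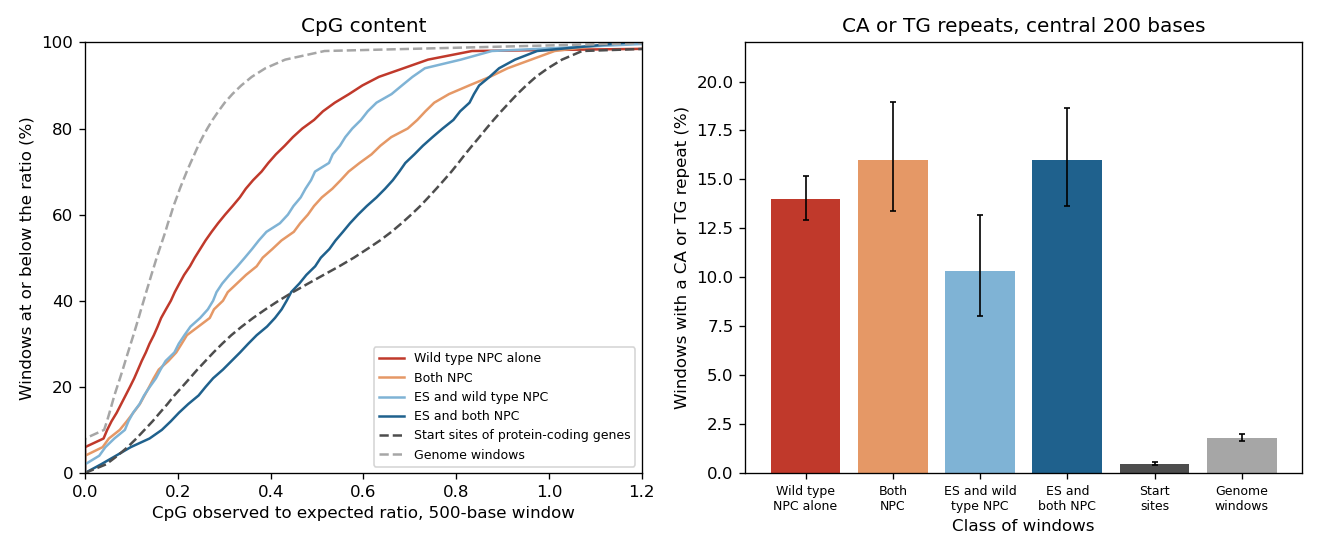
CpG content and CA or TG repeats at wild type NPC H2AK119ub1 peaks, split by the lists that share them, beside start sites and genome windows. On the left each curve gives the percentage of 500-base windows (y axis) at or below an observed to expected CpG ratio (x axis), and the curve of wild type NPC alone, median 0.237, runs nearest to that of the genome. On the right bars give the percentage of central 200-base windows with at least 10 CA or TG units in a row, with 95% Wilson intervals, and all 4 peak classes lie between 10.3% and 16.0%.

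The regions of wild type NPCs alone were the narrower and lower-scoring part of their list. This is a description, since these values come from the peaks that the rule sorted. Their median width was 233 bp, between 134 and 2882 bp, and the authors' fold enrichment had a median of 4.35, between 1.92 and 10.8. Peaks gained in both NPC lists had a median width of 339 bp and a fold of 4.61, and those of all 3 lists 492 bp and 4.18. The median −log10 p-value placed the regions at percentile 43.1 of the wild type NPC list, against 64.4 and 68.9 for those 2 classes. When the list was split by score into 4 groups of about equal size, 74.5% of the lowest-scoring group and 45.9% of the highest-scoring group were regions of wild type NPCs alone. In all they covered 1.14 of the 2.33 Mb of H2AK119ub1 in wild type NPCs.

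Many of the regions lay beside H2AK119ub1 peaks of the other lists. A peak of PCGF5-depleted NPCs was within 1000 bp of 836 regions (22.5%) and within 5000 bp of 1874 (50.4%). A peak of wild type mESCs was within 1000 bp of 700 regions (18.8%) and within 5000 bp of 1622 (43.7%). Taking both lists together, 2212 regions (59.5%) had such a neighbour within 5000 bp and 1503 (40.5%) had none and are called isolated below. The rule therefore covers parts of marked loci as well as loci marked in wild type NPCs alone. PCGF5-depleted mESCs, whose H2AK119ub1 list was not part of the rule, overlapped 510 regions (13.7%, 12.7 to 14.9), against 32.3% of the peaks gained in both NPC lists and 80.1% of those of all 3 lists.

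At the edge of the rule, the regions nearest to a PCGF5-depleted NPC peak abutted it with a gap of 0 bp. They were a 309 bp peak in an intron of Otop2 with a fold of 3.41 and a 354 bp peak over a coding exon of Dll4, a Notch ligand, with a fold of 3.25. Just outside the rule were peaks overlapped by a single base, such as a 404 bp peak in an intron of 4930451C15Rik with a fold of 2.76 and a 248 bp peak in an intron of Slitrk3 with a fold of 3.25. Of the peaks outside the set, 12 were overlapped by at most 10 bp of a PCGF5-depleted NPC peak and 11 by at most 10 bp of an mESC peak.

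**Figure D2:**
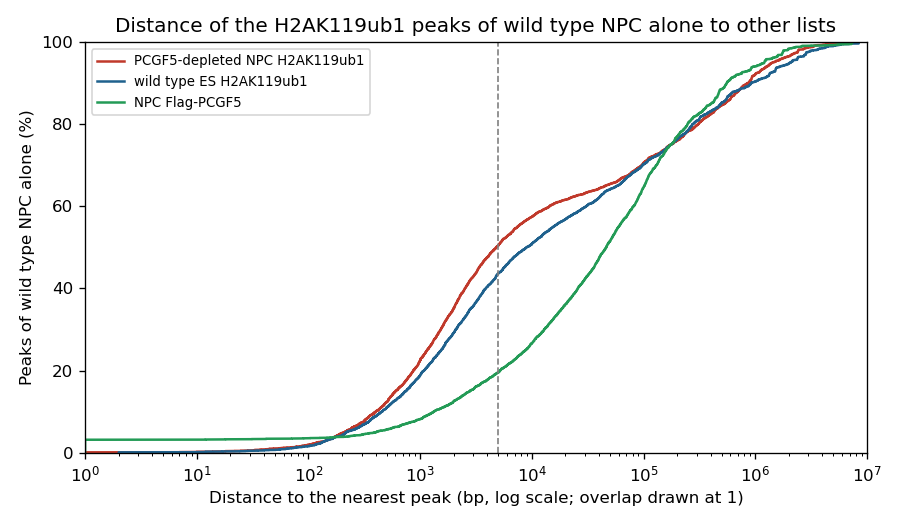
Distance of the 3715 H2AK119ub1 regions of wild type NPCs alone to the nearest peak of 3 lists. The x axis is the distance in bp on a log scale, with an overlap drawn at 1, and the y axis the percentage of regions at or below it, with a dashed line at 5000 bp. At that line the curve of PCGF5-depleted NPC H2AK119ub1 stands at 50.4%, that of wild type mESC H2AK119ub1 at 43.7% and that of NPC Flag-PCGF5 at 19.5%.

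H3K27me3, which the rule did not use, overlapped most of the regions in wild type NPCs and fewer in PCGF5-depleted NPCs. The wild type NPC list overlapped 2761 of 3715 regions, or 74.3% (72.9 to 75.7), against 81.3% of all 5754 wild type NPC H2AK119ub1 peaks. The PCGF5-depleted NPC list overlapped 2158, or 58.1% (56.5 to 59.7), against 70.6% of all peaks. The difference was 16.2 percentage points. The regions were chosen for lacking an H2AK119ub1 peak in PCGF5-depleted NPCs, and how far this shaped the difference was not tested. The PCGF5-depleted NPC H3K27me3 list had more peaks, 14759 against 11371, but they covered less sequence, 8.18 Mb against 9.67 Mb. When both H3K27me3 lists were limited to their 11371 top-scoring peaks, the shares were 74.3% and 52.4%. This limit makes the number of peaks equal and not the covered length.

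The other classes of wild type NPC H2AK119ub1 peaks did not show a gap of that size in the full lists. Among peaks gained in both NPC lists, H3K27me3 overlapped 90.0% in wild type NPCs (87.5 to 92.1) and 91.1% in PCGF5-depleted NPCs (88.7 to 93.0). Among peaks of all 3 lists the shares were 98.6% and 99.3%. For peaks of mESCs and wild type NPCs, which like the regions lacked H2AK119ub1 in PCGF5-depleted NPCs, they were 92.1% (89.5 to 94.1) and 86.7% (83.6 to 89.3). With the higher-scoring 50% of each H3K27me3 list, the change from wild type to PCGF5-depleted NPCs was -17.0 percentage points for the regions, -14.7 for the peaks of mESCs and wild type NPCs, -5.58 for those gained in both NPC lists and -1.92 for those of all 3 lists.

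Each region was then placed by H3K27me3 in both NPC lists. There were 1965 regions with H3K27me3 in both (52.9%, 51.3 to 54.5), 796 in wild type NPCs alone (21.4%, 20.1 to 22.8), 193 in PCGF5-depleted NPCs alone (5.20%, 4.53 to 5.96) and 761 in neither (20.5%, 19.2 to 21.8). In the other 3 classes H3K27me3 in wild type NPCs alone was found at 4.22%, 7.92% and 0.480% of peaks, for peaks gained in both NPC lists, of mESCs and wild type NPCs and of all 3 lists. Where both lists had H3K27me3, the widest such peak at a region had a median width of 1720 bp in wild type NPCs and 717 bp in PCGF5-depleted NPCs. Over all wild type NPC H2AK119ub1 peaks with both the medians were 2279 and 1033.5 bp, so that the narrower width was shared by the whole list. The highest percentile of such a peak within its own list had a median of 82.2 and 70.1. The same percentiles at peaks of all 3 lists were 96.1 and 95.01.

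In mESCs the regions rarely carried H3K27me3. It overlapped 447 regions in wild type mESCs (12.0%, 11.025 to 13.1) and 557 in PCGF5-depleted mESCs (15.0%, 13.9 to 16.2). Peaks gained in both NPC lists, which by definition also lacked wild type mESC H2AK119ub1 peaks, had it at 33.3% and 29.3%. The peaks of all 3 lists had it at 80.2% and 70.8%. Regions with H3K27me3 in wild type NPCs and none in wild type mESCs numbered 2329, or 62.7% (61.1 to 64.2). The share with H3K27me3 in wild type NPCs and in no other of the 4 lists was 18.8% (17.6 to 20.1), against 3.62% of the peaks gained in both NPC lists and 0.360% of those of all 3 lists.

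**Figure D3:**
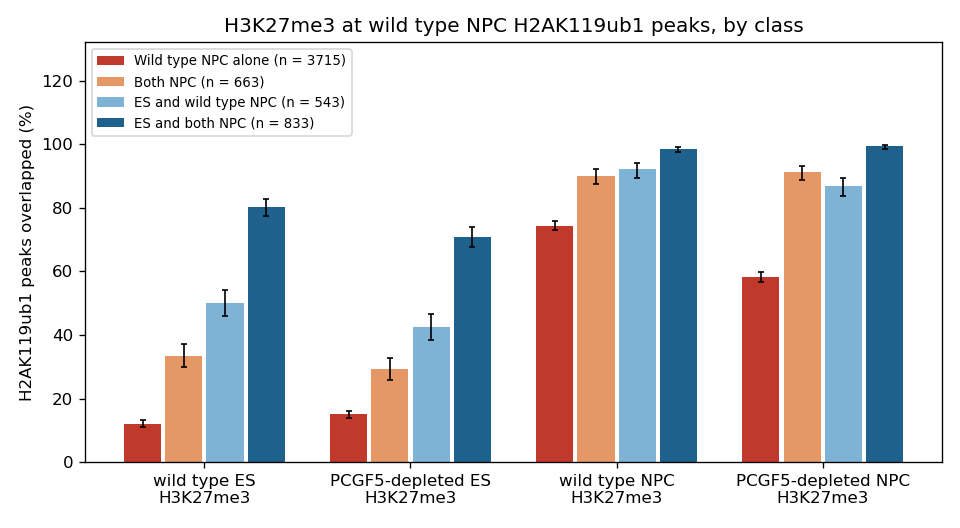
Share of wild type NPC H2AK119ub1 peaks overlapped by H3K27me3, for 4 classes of peaks set by overlap with H2AK119ub1 of mESCs and PCGF5-depleted NPCs. Bars give the percentage (y axis) in each of the 4 H3K27me3 lists (x axis, ES for mESCs), and error bars are 95% Wilson intervals. The regions of wild type NPCs alone fall from 74.3% in wild type NPCs to 58.1% in PCGF5-depleted NPCs and have the lowest bar in each list.

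Isolated regions had H3K27me3 less often than regions with a neighbour. Among the 1503 isolated regions, 55.6% had H3K27me3 in wild type NPCs (53.1 to 58.1) and 36.8% in PCGF5-depleted NPCs (34.4 to 39.3). Among the 2212 regions with a neighbour, the shares were 87.0% (85.6 to 88.4) and 72.6% (70.7 to 74.4). The gap between the NPC lists was thus seen in both. CpG-rich regions had H3K27me3 in wild type NPCs almost throughout, at 242 of 245 (98.8%, 96.5 to 99.6), and in PCGF5-depleted NPCs at 81.2% (75.9 to 85.6), whereas the other 3470 regions stood at 72.6% and 56.5%. Regions with a CA or TG repeat had shares of 60.8% and 52.3%, and those without one 76.5% and 59.0%.

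The 761 regions with H3K27me3 in neither NPC list differed from the rest in several measures. Their median observed to expected CpG ratio was 0.116, below the 0.154 of genome windows, and 22.3% had a CA or TG repeat (19.5 to 25.4), against 12.1% of the 1965 regions with H3K27me3 in both (10.7 to 13.6). Of these 761, 74.6% were isolated and 15.8% lay at a promoter, against 23.1% and 45.0% of the 1965. Their median fold was 4.26, their median width 176 bp and their median score percentile 31.3, against 4.49, 275 bp and 50.1. Of the 5 with the highest scores, the first was intergenic, 40715 bp from the nearest start, that of 4932411N23Rik. The others were regions in introns of the predicted gene Gm3264, Prox1 and Met, and an intergenic peak of 138 bp nearest to Snrpn, an imprinted gene.

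By position, 1336 regions (35.96%, 34.4 to 37.5) were centred in a promoter, taken as 2500 bp to each side of any start of a protein-coding transcript. The share was 47.8% of the peaks gained in both NPC lists (44.0 to 51.6) and 49.2% of those of all 3 lists (45.8 to 52.6). Outside promoters, 111 regions (2.99%) were centred in exons, 649 (17.5%) in introns and 1619 (43.6%) between genes. H3K27me3 overlapped 86.8% of the promoter regions in wild type NPCs and 70.4% in PCGF5-depleted NPCs. For intergenic regions the shares were 68.6% and 51.3%.

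The regions were crowded at some loci. Joining regions less than 10000 bp apart gave 1618 runs, of which 1165 held a single region and 104 held 8 or more. These 104 runs held 1411 regions, 38.0% of all. The longest run, on chromosome 15 from 102735051 to 102874195, covered the HoxC cluster with 85 regions, beside 19 H2AK119ub1 peaks of wild type mESCs and 51 of PCGF5-depleted NPCs. Next came Zic1 and Zic4, zinc finger factors of the dorsal neural tube, with 36 regions, and parts of the HoxD and HoxA clusters with 31 and 29. Runs also covered Cdkn2a (27), Vax2 (23), Hand2 (23), Tcfap2b (22), Isl1 (20) and Tbx15 (20). The length covered by H3K27me3 was smaller in PCGF5-depleted NPCs than in wild type NPCs at 102 of the 104 runs. Over the whole genome it was 8.18 Mb against 9.67 Mb. The runs consist of regions chosen for lacking a PCGF5-depleted NPC H2AK119ub1 peak, and no share over other loci of like size was computed. At start sites, the length was smaller at 63.6% of the 4302 genes with H3K27me3 in either NPC list.

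Of the 104 runs, 12 held no H2AK119ub1 peak of wild type mESCs or PCGF5-depleted NPCs at all. The longest of these, on chromosome 11 from 96106559 to 96130557, lay in the HoxB cluster over the predicted gene Gm53 with 23 regions. H3K27me3 covered 15608 bp of it in wild type NPCs and 2553 bp in PCGF5-depleted NPCs, and none in mESCs of either genotype. Other runs of this kind lay at Tbx20 with 13 regions, Twist1 with 12, Tcfap2d and Tcf21 with 10 each, Cdkn2c with 9 and Ccno with 8. All of these kept H3K27me3 in PCGF5-depleted NPCs, between 1956 bp at Tcfap2d and 6626 bp at Twist1.

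Otx2, a homeodomain factor of forebrain and midbrain, was the only run of 8 or more regions with no H3K27me3 peak in PCGF5-depleted NPCs. The run covered chromosome 14 from 49272809 to 49294796 and held 16 regions, 134 to 814 bp wide, with a median of 332 bp. Their folds lay between 2.70 and 6.31, with a median of 4.07, which is below the 4.35 of all regions. H3K27me3 overlapped 14 of the 16 in wild type NPCs and covered 11366 bp of the run, against 0 bp in PCGF5-depleted NPCs, 342 bp in wild type mESCs and 0 bp in PCGF5-depleted mESCs. The nearest H3K27me3 peak of PCGF5-depleted NPCs was 531010 bp away from any of these regions, the nearest H2AK119ub1 peak of PCGF5-depleted NPCs 71579 bp and that of wild type mESCs 167014 bp. The nearest NPC Flag-PCGF5 peak was 461321 bp away. The regions ran from the intergenic sequence on either side of the gene through its introns and a coding exon.

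Cdkn2a encodes cell cycle inhibitors and is a classical target of Polycomb repression. From 20 kb before to 25 kb after its annotated 5′ end, wild type NPCs had 30 H2AK119ub1 peaks that covered 11621 bp and 27 H3K27me3 peaks that covered 17664 bp. PCGF5-depleted NPCs had 3 and 11 peaks, which covered 754 and 5447 bp. In wild type mESCs there was no H2AK119ub1 peak and 1 H3K27me3 peak of 328 bp.

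**Figure D4:**
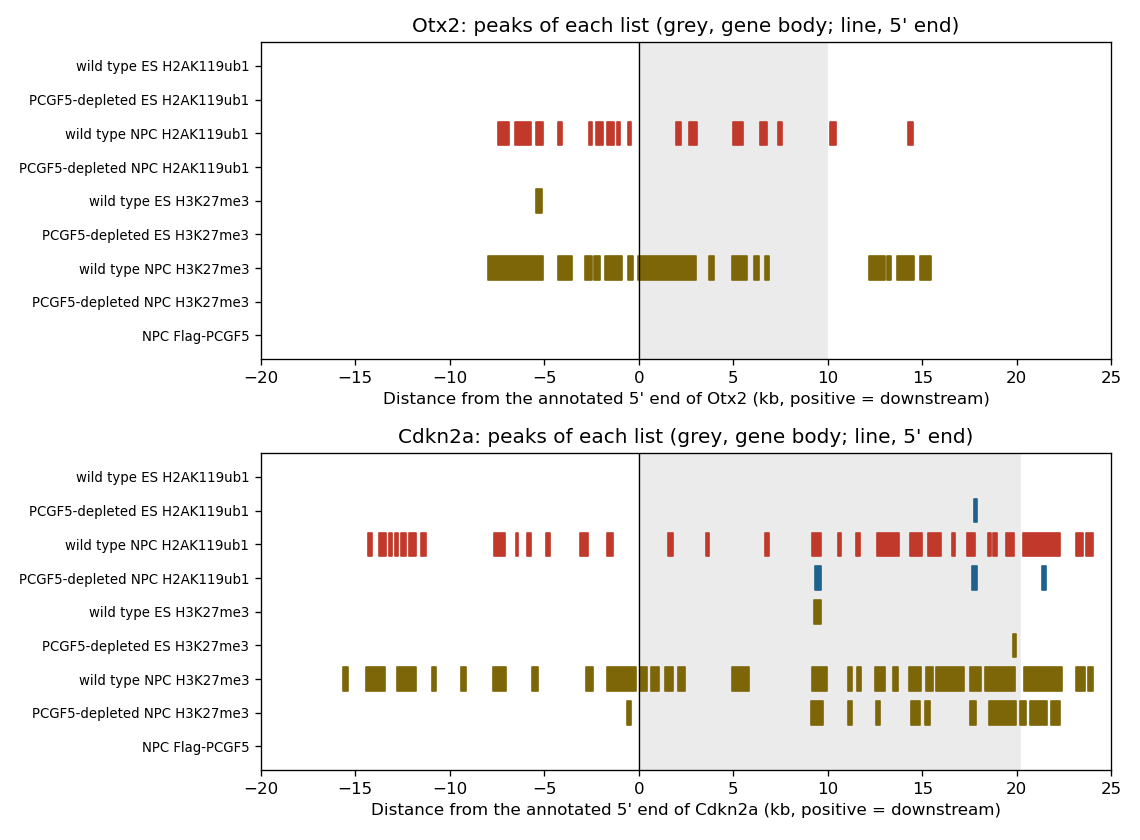
Peaks around Otx2 and Cdkn2a in 9 lists. The x axis is the distance in kb from the annotated 5′ end of each gene, downstream to the right, with the gene body in grey, and each row is a list, with wild type NPC H2AK119ub1 in red. Around Otx2 the 16 peaks of wild type NPC H2AK119ub1 and those of wild type NPC H3K27me3 have no counterpart in PCGF5-depleted NPCs, while around Cdkn2a PCGF5-depleted NPCs keep 3 H2AK119ub1 and 11 H3K27me3 peaks.

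By gene, 865 of 22232 annotated protein-coding genes (3.89%) had a region in their promoter window. At 364 of them wild type mESCs also had an H2AK119ub1 peak in that window and at 365 PCGF5-depleted NPCs did. Genes with neither numbered 394, or 1.77% of all genes, and are the genes gained in wild type NPCs alone. Mitochondrial genes were 6 of the 394 and 4 of the 64 below, which leaves 388 and 60 without them. Of these 394, 298 (75.6%, 71.2 to 79.6) had H3K27me3 in the window in both NPC lists, 64 (16.2%, 12.9 to 20.2) in wild type NPCs alone, 6 in PCGF5-depleted NPCs alone and 26 in neither. In wild type mESCs 217 of them (55.1%, 50.1 to 59.9) had H3K27me3. Among all 22232 genes H3K27me3 in wild type NPCs alone was found at 3.76%, and at 6.25% of the 1120 genes with any wild type NPC H2AK119ub1.

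The length of H3K27me3 at the start sites was smaller in PCGF5-depleted than in wild type NPCs at 316 of the 394 genes and larger at 52. The medians were 902.5 and 1790.5 bp. Other genes with wild type NPC H2AK119ub1, 726 in all, had a smaller length at 574, with medians of 2710 and 3381 bp. Among genes with H3K27me3 in either NPC list these were 85.9% of 368 and 79.6% of 721, a difference that was not tested. Of all 4302 genes with H3K27me3 in either NPC list, it was smaller at 63.6%.

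The 20 genes with the greatest length of these regions were led by Sim1, Otx2 and Cdkn2a. All values that follow are lengths of peaks in the promoter window. Sim1 (chromosome 10), a factor of hypothalamic neurons, had 3082 bp of H2AK119ub1 in wild type NPCs in 3 regions, 758 bp in PCGF5-depleted mESCs and 0 bp in the other lists. Its H3K27me3 covered 4032 bp in wild type NPCs and 2974 bp in PCGF5-depleted NPCs. Otx2 had 2904 bp in 10 regions, with 6013 bp of H3K27me3 in wild type NPCs and 0 bp in the other 3 lists. Cdkn2a had 2692 bp in 6 regions, with H3K27me3 of 5274 and 1086 bp in wild type and PCGF5-depleted NPCs.

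Eomes, a T-box factor of the primitive streak and of cortical intermediate progenitors, had 2268 bp of H2AK119ub1 in wild type NPCs and 1147 bp in PCGF5-depleted mESCs, with H3K27me3 of 4462 and 2784 bp in wild type and PCGF5-depleted NPCs. Bmi1, which encodes the PRC1 subunit PCGF4, had 1929 bp of H2AK119ub1 in 7 regions. Its H3K27me3 was longer in PCGF5-depleted than in wild type NPCs, at 2997 and 2730 bp. Neurod1, a proneural factor, had 1347 bp of H2AK119ub1, with H3K27me3 of 4437 bp in wild type and 1074 bp in PCGF5-depleted NPCs. Olig3, a factor of dorsal progenitors, had 1248 bp in a single region, with H3K27me3 of 2479 bp in wild type and 3456 bp in PCGF5-depleted NPCs.

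Factors of mesodermal tissues were among the 20 as well, namely Tcf21, Tbx20 and Vgll2, with 1926, 1903 and 2031 bp. Alx1 was also among the 20, with 1579 bp. The others were Hoxc13, Prdm8, Ikzf3, Ccno, Spata18, 4930447C04Rik and the predicted genes Gm17649, Gm13334 and Gm53. Gm17649 shares its window with Hoxc13, so that their 2631 and 2411 bp are largely the same regions. In PCGF5-depleted NPCs H3K27me3 was shorter at 17 of the 20 genes and longer at Bmi1, Ikzf3 and Olig3. The 17 were 85.0%, near the 85.9% of the 368 gained genes with H3K27me3 in either NPC list. PCGF5-depleted mESCs had H2AK119ub1 at 10 of the 20, at 22.1% of the 394 genes and at 69.4% of the other 726 genes with wild type NPC H2AK119ub1.

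**Figure D5:**
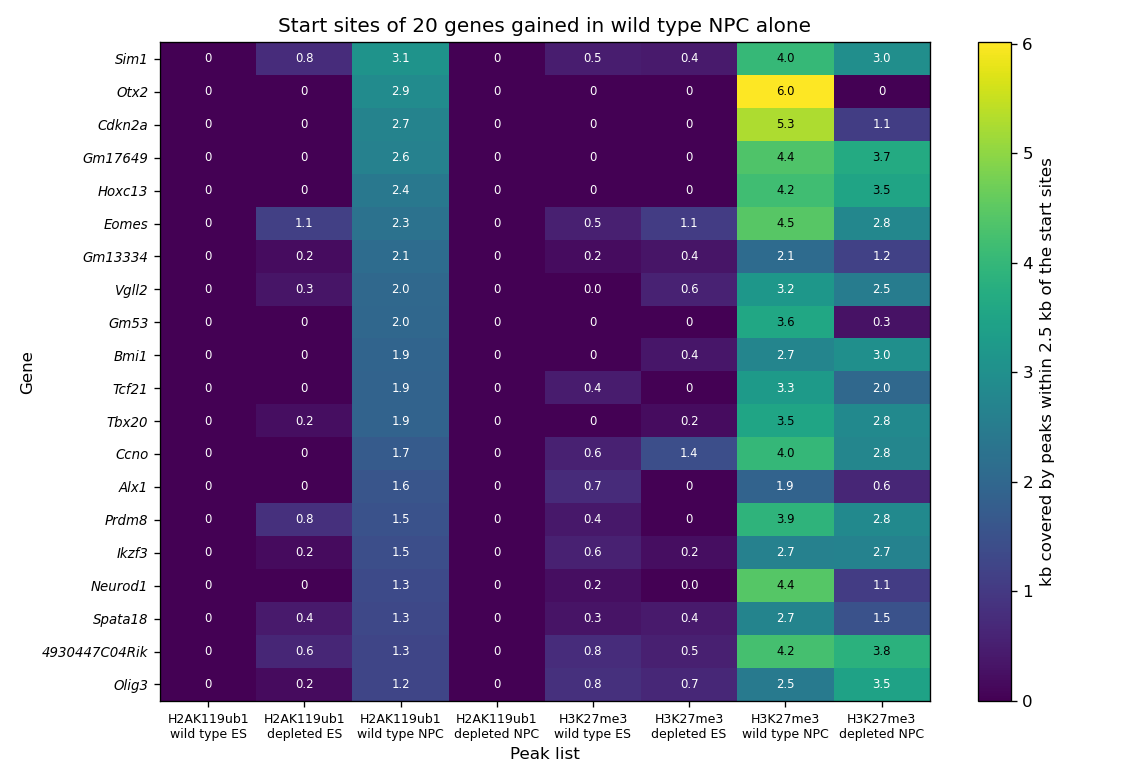
Length of H2AK119ub1 and H3K27me3 peaks at the start sites of the 20 genes gained in wild type NPCs alone with the greatest covered length. Rows are genes, columns are the 8 histone lists (ES, mESCs; depleted, PCGF5-depleted), and colour and number give kb covered within 2.5 kb of the start sites. H2AK119ub1 of wild type mESCs and PCGF5-depleted NPCs is 0 by the rule, and H3K27me3 of PCGF5-depleted NPCs is 0 at Otx2 alone of the 20.

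Among the 64 genes with H3K27me3 in wild type NPCs and none in PCGF5-depleted NPCs, the 10 with the longest regions were Otx2, Nfib, Myb, Pmepa1, Nr5a2, Esrp1, Pura, Hivep3, Sall1 and Bcl11a. Nfib, a nuclear factor I gene of neural and glial development, had 1048 bp of H2AK119ub1 and 2459 bp of H3K27me3 in wild type NPCs, 0 bp of both in all other lists and 228 bp of NPC Flag-PCGF5. Nr5a2, a nuclear receptor gene active in early embryos, had 554 bp and 2794 bp, and 0 bp in the other lists. Esrp1, an epithelial splicing factor, differed in that mESCs carried H3K27me3, at 1151 bp in wild type and 1488 bp in PCGF5-depleted mESCs, before the 4259 bp of wild type NPCs. Bcl11a, a zinc finger gene of neurons and blood, likewise had 1111 and 1347 bp in mESCs and 4008 bp in wild type NPCs, and H2AK119ub1 of 1453 bp in PCGF5-depleted mESCs. Myb had 764 bp of H2AK119ub1 and 1931 bp of H3K27me3 in wild type NPCs, and Sall1 359 and 364 bp. Cdh1, the gene of E-cadherin, was also among the 64, with 281 and 1782 bp, and is named here after its values were seen.

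Developmental gene lists differed in how many of their members were gained in wild type NPCs alone. Of 28 Wnt ligands and antagonists 6 were (21.4%, against 1.77% of all genes), namely Wnt2, Wnt7a, Wnt16, Dkk1, Dkk2 and Sfrp5. They were 40.0% of the 15 with any wild type NPC H2AK119ub1, near the 35.2% of all 1120 genes with it. The region at Wnt7a was 689 bp long, and the H3K27me3 there covered 3499 bp in wild type and 2259 bp in PCGF5-depleted NPCs. Of 33 mesoderm, endoderm and streak regulators 4 were, Eomes, Mesp1, Tcf21 and Twist1, and of 17 T-box factors Eomes and Tbx20. These were 17.4% of the 23 and 18.2% of the 11 with any wild type NPC H2AK119ub1. Of 20 proneural factors there were 2, Neurod1 and Olig3, and of 20 annotated neuronal genes 2, Slc17a6, a vesicular glutamate transporter, and Lhx3. These were 14.3% of the 14 and 22.2% of the 9 with the mark. Of 29 annotated neural progenitor genes only Otx2 was, 6.25% of the 16 with the mark. Of 25 Nodal and TGF-beta pathway genes Tgfb2 was, 33.3% of only 3 with the mark.

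Further members of this kind were Bmp4 and Id4 of 25 BMP genes, Fgf2 and Fgf5 of 22 FGF ligands, Aldh1a3 and Cyp26c1 of 16 retinoic acid genes, Pax8 of 9 Pax genes, Lhx3 of 12 LIM homeobox genes, Six6 of 18 homeobox genes of its own, the Irx and the Dlx families, Foxi2 and Foxq1 of 40 forkhead genes, Bmi1 of 25 Polycomb genes and Klf4 of 19 pluripotency genes. These lists held 6, 7, 5, 8, 12, 16, 19, 3 and 6 genes with wild type NPC H2AK119ub1, in that order. Gained alone among them were 33.3%, 28.6%, 40.0%, 12.5%, 8.33%, 6.25%, 10.5%, 33.3% and 16.7%, against 35.2% of all 1120 genes with the mark. No gene was gained alone among 18 Sox, 14 Nkx, 18 Notch, 23 imprinted and 30 ribosomal protein genes. Of them 6, 12, 3, 5 and 0 had wild type NPC H2AK119ub1, so that no ribosomal protein gene could be gained. At the 30 genes of the lists that were gained alone, Hoxc13 included, H3K27me3 was shorter in PCGF5-depleted than in wild type NPCs at 25 (83.3%) and longer at 5, near the 85.9% of the 368 gained genes with H3K27me3.

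All 39 Hox genes had H2AK119ub1 at a start site in wild type NPCs and 31 had a region of wild type NPCs alone there, but 31 also had H2AK119ub1 in wild type mESCs and 36 in PCGF5-depleted NPCs. Of the Hox genes, Hoxc13, at the posterior end of its cluster, was the single one gained in wild type NPCs alone. All 39 had H3K27me3 in both NPC lists. Apart from Hoxc13, each of the Hox genes with a region had H2AK119ub1 in at least 1 of the 2 other lists. The LIM homeobox genes had like counts, with all 12 marked in wild type NPCs, 9 with a region, 10 marked in wild type mESCs, 10 in PCGF5-depleted NPCs and 1 gained alone, and no difference between lists was tested.

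Marker genes were looked up by their marks alone, and RNA levels were not analysed here. Pou5f1 and Nanog had no peak of either mark in any list. Klf4 had a region of 258 bp and H3K27me3 of 2156 bp in wild type and 925 bp in PCGF5-depleted NPCs, and Zfp42 had H3K27me3 of 253 bp in wild type NPCs alone. Esrrb had 87 bp of a region in its window, beside H2AK119ub1 of 212 bp in wild type mESCs and 490 bp in PCGF5-depleted NPCs. Of the neural markers Pax6 had 2860 bp of regions beside H2AK119ub1 in mESCs and PCGF5-depleted NPCs, and Nes, Cdh2 and Tubb3 had no region. PCGF5-depleted NPCs had H2AK119ub1 of 354 bp at Nes and 208 bp at Cdh2, where wild type NPCs had 0 bp. H3K27me3 covered 1252 bp at Nes in wild type and 2670 bp in PCGF5-depleted NPCs, 0 and 1153 bp at Cdh2, and 1922 and 660 bp at Tubb3. Sox1 was not analysed here. Nodal, Lefty1, Lefty2, Pou3f2 and Pcgf5 had no region either. Pou3f2 had H2AK119ub1 of 0 bp in wild type and 751 bp in PCGF5-depleted NPCs, with H3K27me3 of 1953 and 3510 bp. In wild type NPCs H3K27me3 covered 1379, 1638, 698 and 720 bp at Nodal, Lefty1, Lefty2 and Pcgf5, and in PCGF5-depleted NPCs 0 bp at each.

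The 10 highest-scoring regions included isolated ones. The first, a 471 bp region in an intron of Dock2 on chromosome 11 (34495268 to 34495738), had a fold of 5.26 and a −log10 p-value of 31.7. H3K27me3 covered 397 bp of it in wild type NPCs and 0 bp in every other list, and no H2AK119ub1 peak of the other 2 lists lay closer than 372037 bp. A 192 bp region in an intron of Adarb2 on chromosome 13 (8450524 to 8450715) had a fold of 9.60 and was covered by H3K27me3 in wild type NPCs alone. The remaining 8 of the 10 had H3K27me3 in both NPC lists and were nearest to Gm10419, Onecut2, Tcfap2b, Nkx2-1, Cdkn2c, Hoxb9, Fezf1 and Lhx2.

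The 5 widest regions lay in loci with other peaks. They were a 2882 bp intergenic region 4482 bp from a start of Hoxc10, a 2483 bp intergenic region nearest to Hand2, a 1961 bp intergenic region nearest to Pax9, an 1883 bp region over a non-coding part of a Hoxc4 exon and an 1824 bp region over a non-coding part of a Hoxd8 exon. All 5 had H3K27me3 in both NPC lists, and each was within 3000 bp of an H2AK119ub1 peak of PCGF5-depleted NPCs, with the distances being 221, 2889, 2311, 647 and 1369 bp. On the mitochondrial genome, which is not packed into nucleosomes, 2 regions were listed, and wild type NPC H3K27me3 peaks overlapped both.

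The NPC Flag-PCGF5 list of 12013 peaks overlapped 116 of 3715 regions (3.12%, 2.61 to 3.73), against 3.96% of all wild type NPC H2AK119ub1 peaks (3.49 to 4.50). It had a peak within 5000 bp of 725 (19.5%, 18.3 to 20.8), against 21.6% of all these peaks. Peaks gained in both NPC lists were overlapped at 3.62% (2.44 to 5.33) and had a peak within 5000 bp at 24.1% (21.0 to 27.5). For peaks of all 3 lists these shares were 8.28% (6.60 to 10.4) and 26.3% (23.4 to 29.4). PCGF5-depleted NPC peaks found in neither wild type list, 1646 in number, stood at 4.37% (3.49 to 5.47) and 17.98% (16.2 to 19.9). The median distance of a region to the nearest NPC Flag-PCGF5 peak was 46220 bp. In mESCs, where only 653 Flag-PCGF5 peaks were listed, 6 regions were overlapped.

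Within the regions, a Flag-PCGF5 peak lay within 5000 bp of 23.6% of those with H3K27me3 in both NPC lists (21.8 to 25.5), 15.7% of those with H3K27me3 in wild type NPCs alone (13.3 to 18.4) and 13.7% of those with neither (11.4 to 16.3). It lay that near to 13.4% of the isolated regions and 23.6% of those with a neighbour. The highest-scoring regions that Flag-PCGF5 overlapped included intergenic ones near Tcf21, Eomes, Foxd3 and Hoxc12, with folds of 8.30, 8.05, 7.39 and 6.37. By gene, 61 of the 394 genes gained in wild type NPCs alone (15.5%, 12.2 to 19.4) had NPC Flag-PCGF5 at a start site, against 14.1% of all protein-coding genes and 22.9% of the 1120 genes with wild type NPC H2AK119ub1. Among the 20 genes above, Tcf21 was the only one.

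The PCGF5-depleted NPC H2AK119ub1 peaks that overlapped neither wild type list, mESC or NPC, are given for comparison. They numbered 1646 of 3845. H3K27me3 overlapped 46.6% of them in wild type NPCs (44.2 to 49.0) and 50.5% in PCGF5-depleted NPCs (48.1 to 53.0), where the 3715 regions of wild type NPCs alone stood at 74.3% and 58.1%. H3K27me3 was in neither list at 40.1% of them, against 20.5%, and in the list of the same cells alone at 13.3%, against 21.4%. By gene, 216 genes were gained in PCGF5-depleted NPCs alone, of which 36 (16.7%, 12.3 to 22.2) had H3K27me3 in PCGF5-depleted NPCs alone, against 3.47% of all genes. The 16.2% of the 394 genes in the opposite direction stood against 3.76%.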

How the data were processed

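ChIP-seq had been performed on 16 libraries, 1 per group, of which 6 were inputs and were not used here. Of the 10 peak lists, 8 were for histone marks and 2 for Flag-PCGF5. According to the study's methods, chromatin for the histone marks was cut with micrococcal nuclease, and the fragments were crosslinked with formaldehyde afterwards. Drosophila chromatin was added to these reactions for quantification. For Flag, doubly crosslinked chromatin (EGS, then formaldehyde) was sheared by sonication. Reads were trimmed (Trimmomatic, at least 36 bp kept), mapped to mm9 (Bowtie2) and freed of duplicates (Picard) by the authors, who called peaks on each library by itself with MACS2 (version 2.1.0 in the submitters' processing notes). The deposited fold enrichment, −log10 p-value, −log10 q-value and score columns are those of the authors' peak caller. The deposited score is a scaled −log10 p-value in histone lists and −log10 q-value in Flag lists. They compare peaks within a list only. No read totals were in the files, so that the depth is unknown. Since lists were called separately, their lengths depend on depth and background.

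Overlaps of at least 1 bp, distances and classes were computed in Python 3.11.15 with pandas 2.3.3, numpy 2.4.6 and scipy 1.17.1, tested on simulated peaks, and 5 counts were checked against bedtools 2.31.1, of which 0 differed. Genes and start sites were those of GENCODE M1 on NCBIM37 (mm9), with 22232 protein-coding gene names, and sequences were read from that assembly. Coordinates count from 1. Peaks are not replicates, and p-values were not computed. The regions, gene lists and measures were chosen with earlier results of these data known. Genes named were the 20 with the greatest region length at start sites, the 10 highest-scoring and 5 widest regions, members of 22 gene lists, genes examined by the study, and the 10 longest with H3K27me3 in wild type NPCs alone. Alternatives were another overlap, distance, window or score limit, merged peaks, equal numbers of peaks and chromosomes 1 to 19. Added after seeing the data were the top 50% of the wild type NPC list alone and the removal of mitochondrial peaks.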

Additional observations from a re-analysis of the deposited data

Results flagged for a closer look

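The share of the 3715 regions overlapped by H3K27me3 moved in opposite directions in the 2 stages. From wild type to PCGF5-depleted cells it changed by 2.96 percentage points in mESCs (12.0% to 15.0%) and by -16.2 percentage points in NPCs (74.3% to 58.1%). The rule removed peaks marked by H2AK119ub1 in wild type mESCs and in PCGF5-depleted NPCs, the groups with the lower H3K27me3 share at each stage. How far the rule shaped these directions was not tested. In mESCs the share fell in the other classes, from 33.3% to 29.3% for peaks gained in both NPC lists, 50.1% to 42.4% for those of mESCs and wild type NPCs and 80.2% to 70.8% for those of all 3 lists. Each group had 1 library, so that no test of the opposite directions at the regions was made and their difference was not tested.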

How the results depend on the processing

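No paired analysis was possible because each group had 1 library and no result comes from a test. The number of regions was 3715 in the full lists. It was 1962 with the higher-scoring 50% of each list, 2258 with the wild type NPC list at the length of the PCGF5-depleted NPC list, 1851 with peaks within 1000 bp merged and 1597 with the higher-scoring 50% of the wild type NPC list alone. Each of these started from fewer wild type NPC peaks. From the same 5754 peaks, the number was 4459 when sharing required at least 50% of a peak to be overlapped. It was 2539 when a peak of wild type mESCs or PCGF5-depleted NPCs within 1000 bp counted as shared. The H3K27me3 share in wild type and PCGF5-depleted NPCs was 70.3% and 49.1% when at least 50% of a region had to be overlapped, 82.2% and 66.2% for regions of the higher-scoring 50% of the wild type NPC list, and 58.4% and 41.4% with the higher-scoring 50% of each H3K27me3 list. With equal numbers of H3K27me3 peaks in both lists the PCGF5-depleted share was 52.4%. It was below the wild type share in each setting run. The Flag-PCGF5 share was 3.12% by overlap, 8.16% within 1000 bp, 26.6% within 10000 bp and 9.96% with the higher-scoring 50% of the Flag-PCGF5 list. The promoter share was 14.6% with a window of 1000 bp. Genes gained in wild type NPCs alone numbered 262 with the higher-scoring 50% of each list, of which 166 were among the 394, and 166 with that of the wild type NPC list alone. With a promoter window of 1000 bp they numbered 270, of which 206 were among the 394. With a window of 5000 bp they numbered 414, of which 358 were. A region is absent from another list only as far as the unknown depth of that library allows.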
